A study of Homo sapiens with 6 samples.

Results

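The loci of 6 genes that mark lung cell lineages were examined for YAP and TAZ occupancy in H1299, an established cell line from a human non-small cell lung carcinoma. The genes were NKX2-1, FOXA2, SFTPA1, SFTPB, SFTPC and SCGB1A1. Each locus was the gene span, given to the nearest kb in hg19, plus 30 kb on each side, and every deposited peak that overlapped it was counted. The loci held 236 of the 1389618 deposited peaks of the autosomes and the X chromosome, with 56 and 60 of them in YAP replicates 1 and 2 and 61 and 59 in TAZ replicates 1 and 2; paired values are given in this order throughout. The series consisted of 6 libraries of H1299 cells held without serum for 18 hours, 2 immunoprecipitated with anti-YAP, 2 with anti-TAZ and 2 input libraries without antibody, with no further treatment and no genetic change named in the labels. Nothing in the labels says that replicates came from separate cultures, so each spread is that between libraries and may be technical. The lists hold no read totals, so the depth is unknown. They hold no expression values either, so whether these genes are silent in H1299 cells was not measured.

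YAP and TAZ are coactivators at the end of the Hippo pathway and reach DNA through partners, mainly the TEAD factors. NKX2-1 is the homeodomain factor that specifies the lung lineage and drives surfactant genes, and FOXA2 is a forkhead factor that opens chromatin for the same program. SFTPA1, SFTPB and SFTPC encode surfactant proteins of alveolar type II cells, the first a collectin of innate defence and the other two the hydrophobic proteins that spread the surfactant film. SCGB1A1 encodes the secretoglobin of airway club cells.

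The stretch just upstream of the gene start is shown for the 3 genes with an entry in the RefSeq promoter table (GRCh38.p14, another build than the peaks). Peaks within 2 kb of the start were found in 3 libraries at NKX2-1, in all 4 at SFTPB and in none at SFTPA1. How often other gene starts have such peaks was not counted. Each stretch is the 250 bases before the outermost listed start, written 5′ to 3′ on the strand of the gene. They lie at chr14:36520233-36520482 (minus strand), chr2:85668742-85668991 (minus strand) and chr10:79610689-79610938 (plus strand). Capitals mark a match, on either strand, to the TEAD motif GGAATG, the AP-1 motif TGANTCA or the forkhead motif TGTTTAC.
NKX2-1: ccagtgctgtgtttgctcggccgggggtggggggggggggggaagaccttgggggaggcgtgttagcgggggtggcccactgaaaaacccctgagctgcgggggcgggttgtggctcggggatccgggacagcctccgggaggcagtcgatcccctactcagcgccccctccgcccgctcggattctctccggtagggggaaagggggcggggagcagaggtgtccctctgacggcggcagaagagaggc
SFTPB: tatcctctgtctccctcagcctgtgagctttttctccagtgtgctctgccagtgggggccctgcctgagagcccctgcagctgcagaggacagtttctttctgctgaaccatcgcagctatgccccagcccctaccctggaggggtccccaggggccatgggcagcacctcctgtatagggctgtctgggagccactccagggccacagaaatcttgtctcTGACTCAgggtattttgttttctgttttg
SFTPA1: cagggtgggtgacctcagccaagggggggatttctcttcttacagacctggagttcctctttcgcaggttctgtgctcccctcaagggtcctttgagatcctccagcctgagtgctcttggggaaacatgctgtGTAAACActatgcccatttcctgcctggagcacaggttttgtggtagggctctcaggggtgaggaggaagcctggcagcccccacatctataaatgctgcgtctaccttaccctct
The SFTPB stretch held 1 AP-1 match and the SFTPA1 stretch 1 forkhead match, and the NKX2-1 stretch held none of the 3 motifs. NKX2-1 and SFTPB each have a second entry, for a start further downstream: that of NKX2-1 held 1 forkhead match, 130 bases before its start, and that of SFTPB held no match. Among 35116 promoter entries of the same length, 11.9% held the TEAD motif, 6.57% the AP-1 motif and 2.98% the forkhead motif. Neither match overlapped another motif, and a match is a run of letters, not a measured site.

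The 6 loci fell into a sparse and a dense set. NKX2-1, FOXA2 and SFTPA1 were covered below the median of all 65 kb windows of the genome, SFTPC above it, and SCGB1A1 and SFTPB above the 90th percentile. The share of bases covered by deposited peaks, averaged over the 4 libraries, was 3.76% at NKX2-1, 5.72% at FOXA2 and 6.68% at SFTPA1. It was 19.5% at SFTPC, 50.5% at SCGB1A1 and 55.8% at SFTPB. Across 46686 windows the median was 7.71%, with 25% of windows at or below 3.63% and 25% at or above 19.04%. The library ranges of the 3 sparse loci overlapped, and so did those of SCGB1A1 and SFTPB. The highest library of the sparse loci had 10.7% and the lowest library of the dense loci 44.3%, with SFTPC between them at 13.1% to 30.3%.

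**Figure D1:**
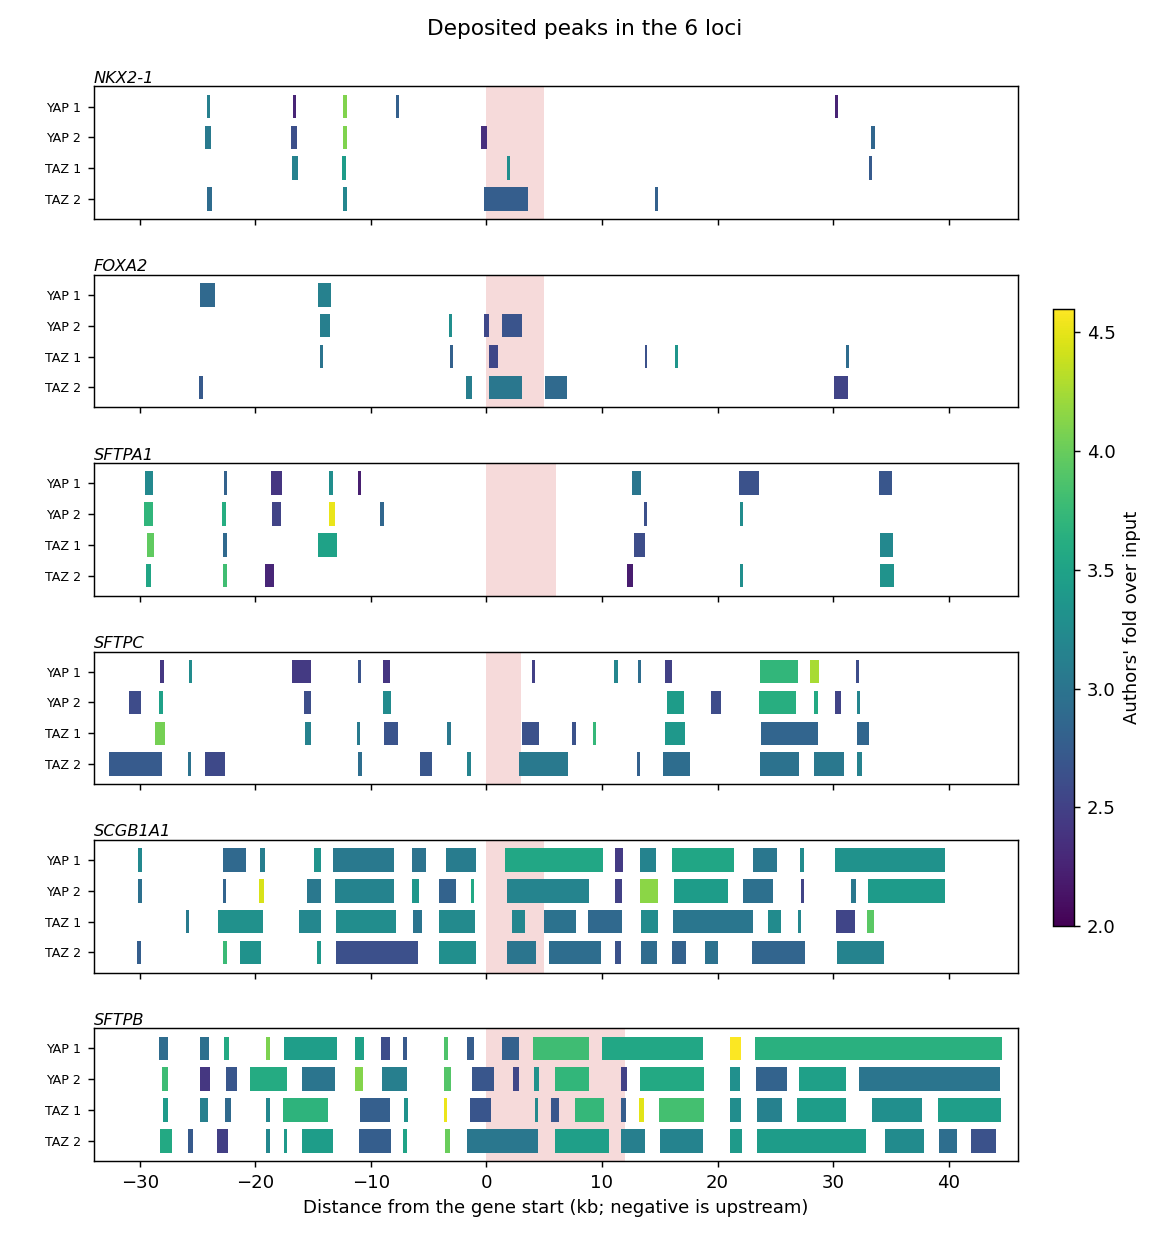
Every deposited peak in the 6 loci, by library (rows) and distance from the gene start in kb (negative is upstream), coloured by the authors' fold over input; the pink band is the gene span. SFTPB and SCGB1A1 are tiled by peaks in all 4 libraries, the SFTPA1 span is empty, and the widest peaks over the NKX2-1 and FOXA2 spans belong to TAZ replicate 2.

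At NKX2-1, 2.25% and 3.34% of the bases were covered in YAP replicates 1 and 2, and 2.04% and 7.42% in TAZ replicates 1 and 2. TAZ replicate 2 was the high library and the antibodies overlapped (YAP 2.79% ± 0.77, TAZ 4.73% ± 3.81, SD, n = 2; exact two-sided permutation p = 1). Within their own lists these values stood at the 12.3, 24.5, 19.6 and 55.4 percentiles of windows. The 8 merged regions of the locus included 1 met by all 4 libraries, a narrow peak 12.05 kb upstream of the start at chromosome 14 from 37002048 to 37002459. Its fold was 4.11 and 4.10 with YAP and 3.43 and 3.19 with TAZ. It ranked 61534 and 41621 by −log10 q in the YAP lists and 140711 and 147743 in the TAZ lists, where rank 1 is the strongest peak of a list.

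Over the NKX2-1 gene itself the libraries did not show the same thing. Peaks covered 0% and 1.06% of the span with YAP and 5.08% and 71.8% with TAZ. The TAZ replicate 2 peak was 3792 bp wide, from 36986412 to 36990203, with a −log10 q of 1.84 at fold 2.77. The YAP replicate 2 peak sat at the start and the TAZ replicate 1 peak inside the gene, and 0 bases were common to all 4 libraries. RefSeq places the noncoding genes SFTA3 and NKX2-1-AS1 across the same stretch, so a peak there cannot be given to 1 gene.

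FOXA2 resembled NKX2-1. Coverage was 3.82% and 5.13% with YAP and 3.25% and 10.7% with TAZ, with TAZ replicate 2 again the highest and the antibodies overlapping (YAP 4.48% ± 0.93, TAZ 6.95% ± 5.25, SD, n = 2; exact two-sided permutation p = 1). FOXA2 was the 1 locus of the 6 with no base in peaks of all 4 libraries. Its span was covered to 0% and 39.1% with YAP and to 15.6% and 58.5% with TAZ. The merged region over the start, chromosome 20 from 22562893 to 22566217, had no peak in YAP replicate 1. Its fold was 2.67 in YAP replicate 2 and 2.55 and 3.04 with TAZ. The YAP replicate 2 peak of that fold began 1.35 kb downstream of the start, and another of fold 2.56 lay across it. The TAZ peaks began 0.183 and 0.185 kb downstream, which is finer than the nearest kb to which the start was set. The region met by 3 libraries with the highest mean fold lay 13.4 kb upstream, from 22579441 to 22580607, with a fold of 3.13 and 3.11 with YAP and 3.00 in TAZ replicate 1. The highest fold of any peak at FOXA2 was 3.36, in TAZ replicate 1, and no peak reached a fold of 4. RefSeq lists LINC00261 downstream and LNCNEF upstream of FOXA2, both noncoding.

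SFTPA1 had no peak over the gene in any of the 4 libraries. The locus was covered to 9.28% and 4.91% with YAP and to 7.15% and 5.36% with TAZ; YAP replicate 1 was highest, YAP replicate 2 lowest, and the antibodies overlapped (YAP 7.10% ± 3.09, TAZ 6.25% ± 1.26, SD, n = 2; exact two-sided permutation p = 1). The nearest peak to the start lay 8.87 kb upstream, in YAP replicate 2 alone. Of 9 regions, 3 were met by all 4 libraries, the one with the highest mean fold 28.7 kb upstream at chromosome 10 from 81340367 to 81341252. Its fold was 3.22 and 3.70 with YAP and 3.97 and 3.53 with TAZ. A region 12.97 kb upstream held the strongest peak of the locus, with a fold of 4.51 and rank 14124 in YAP replicate 2. Its peaks in YAP replicate 1 and TAZ replicate 1 were weaker, and TAZ replicate 2 had none there.

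The gene for the other surfactant protein A, SFTPA2, also had 0% of its span covered in all 4 libraries. SFTPA1 and SFTPA2 are near-identical copies, and how reads that fit both were treated is not given in the sources used here, so the empty spans are uncertain. Their loci overlap, and the region 28.7 kb upstream of SFTPA1 belongs to both.

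SFTPC was intermediate and, with all deposited peaks, was the 1 locus at which the antibodies did not overlap. Coverage was 14.3% and 13.1% with YAP and 20.6% and 30.3% with TAZ, so both TAZ libraries stood above both YAP libraries. Mean YAP coverage was 13.7% ± 0.81 and mean TAZ coverage 25.4% ± 6.86 (SD, n = 2), which is -11.7 percentage points as YAP minus TAZ. By exact two-sided permutation p was 0.333, and a design of 2 against 2 libraries cannot go lower. Without TAZ replicate 2 the difference was -6.87 percentage points, and with lists of equal length it was -16.5. Coverage higher in both TAZ than in both YAP libraries was found in 5.26% of all windows, and the reverse in 44.8%. The 6 loci gave 1 and 0. Among loci compared below, the housekeeping genes ACTB and GAPDH were also covered more in both TAZ libraries. The target gene CCN2 and the olfactory receptor cluster were covered more in both YAP libraries.

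The SFTPC gene was almost bare. Peaks covered 0% of its span in 3 libraries and 4.70% in TAZ replicate 2, where a peak of fold 3.05 began at the end of the gene. Most of the coverage lay downstream, toward BMP1, with 19.5% and 22.1% of the downstream 30 kb covered by YAP peaks and 32.3% and 44.2% by TAZ peaks. The upstream 30 kb, toward LGI3, REEP4 and HR, had 10.5% and 5.43% with YAP and 10.9% and 18.8% with TAZ. Of 18 regions, 8 were seen in a single library and 4 in all 4. The widest, 7394 bp on chromosome 8 from 22042598 to 22049991, lay 23.6 kb downstream. Its fold was 4.26 and 3.63 with YAP and 2.83 and 3.04 with TAZ, from peaks that did not all overlap. The YAP replicate 1 peak lay 28.0 to 28.8 kb downstream of the start, where YAP replicate 2 had a fold of 3.57. RefSeq gives SFTPC a longer span than the 3 kb used here, so the ends of the gene are uncertain.

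SCGB1A1 was densely covered in every library. Coverage was 54.7% and 44.3% with YAP and 52.2% and 50.9% with TAZ; YAP replicate 1 was highest, YAP replicate 2 lowest, and the antibodies overlapped (YAP 49.5% ± 7.4, TAZ 51.6% ± 0.92, SD, n = 2; exact two-sided permutation p = 1). These values stood at the 93.8, 91.3, 95.2 and 93.3 percentiles of the windows of their own lists. The gene span was covered to 67.9% and 64.7% with YAP and to 22.7% and 50.3% with TAZ. A region 0.914 kb upstream of the start, chromosome 11 from 62181869 to 62185086, had a fold of 3.09 and 3.56 with YAP and 3.23 and 3.28 with TAZ, and 1195 of its bases lay in peaks of all 4 libraries. The next region, from 62187604 to 62197863, began inside the gene and ran past its end, with 3969 bases common to the 4 libraries.

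The neighbours of SCGB1A1 are ASRGL1 upstream and AHNAK, a very large cytoskeletal scaffold gene, downstream. Averaged over the 4 libraries, coverage was 51.4% over the SCGB1A1 span, 41.8% in the upstream 30 kb, 59.1% in the downstream 30 kb and 53.8% from 30 to 100 kb on both sides. In both YAP libraries the span was covered more than any of these flanks, and in both TAZ libraries it was covered less than the downstream 30 kb and the 30 to 100 kb flanks. The strongest single peak lay 19.27 kb upstream of the start, from 62166314 to 62166733 in YAP replicate 2, with a fold of 4.44 and rank 11514. The peaks of the other libraries that overlapped this peak were weaker, with a fold of 3.11 for YAP replicate 1 and 3.31 for each TAZ library.

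SFTPB was the most covered of the 6. Coverage was 61.8% and 57.1% with YAP and 47.0% and 57.2% with TAZ; TAZ replicate 1 was the low library, and TAZ replicate 2 lay just above YAP replicate 2 (YAP 59.5% ± 3.3, TAZ 52.1% ± 7.2, SD, n = 2; exact two-sided permutation p = 0.667). All 4 values lay between the 93.6 and 96.1 percentiles of the windows of their own lists. The gene span was covered to 68.9% and 41.0% with YAP and to 35.1% and 78.8% with TAZ. Of 10 regions, 8 were met by all 4 libraries, and 23267 bases of the locus lay in peaks of all 4.

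At SFTPB the coverage was one-sided. The 30 kb downstream of the gene, toward USP39, a splicing factor gene, was covered to 88.1% and 77.5% with YAP and to 63.7% and 69.6% with TAZ. The upstream 30 kb, toward GNLY, was covered to 32.7% and 43.2% with YAP and to 34.9% and 36.1% with TAZ. In YAP replicate 1 a single peak of 21400 bp reached into the downstream end of the locus. The region with the highest mean fold, among those met by all 4 libraries, was narrow and lay 3.10 kb upstream of the start, at chromosome 2 from 85899096 to 85899706. Its fold was 3.88 and 3.90 with YAP and 4.53 and 4.005 with TAZ. Across the start itself ran a merged region of 20538 bp, from 85877173 to 85897710, made of 4 and 6 peaks with YAP and 7 and 4 with TAZ. Its peaks in YAP replicate 1 lay on both sides of the start but not over it.

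**Figure D2:**
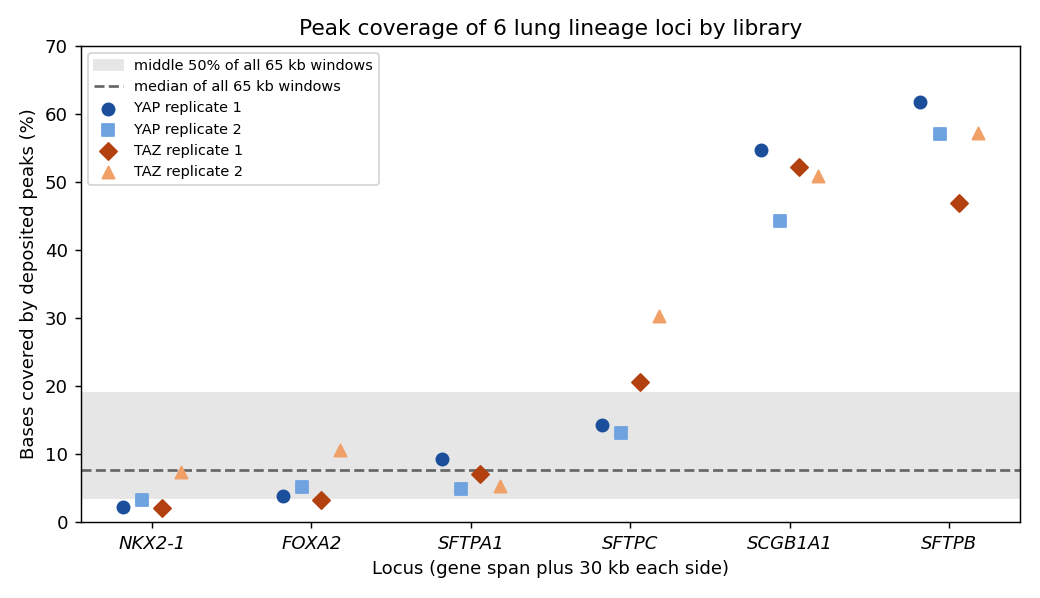
Percent of bases covered by deposited peaks in each locus (gene span plus 30 kb each side), 1 point per library, with the median (dashed line, 7.71%) and the middle 50% (grey band, 3.63 to 19.04%) of all 65 kb windows, from the mean over libraries. NKX2-1, FOXA2 and SFTPA1 lie near or under the median and SCGB1A1 and SFTPB between 44.3% and 61.8%.

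Beyond 30 kb, the surroundings of NKX2-1 and FOXA2 were again covered below the median window of 7.71%, and those of SFTPA1 above it. From 30 to 100 kb on both sides, the mean coverage was 4.46% around NKX2-1, 5.86% around FOXA2 and 11% around SFTPA1, against 28.8% around SFTPC, 53.8% around SCGB1A1 and 41.8% around SFTPB. In 10 kb steps around NKX2-1, the first step downstream of the start was covered to 19.2% with TAZ and 0.27% with YAP, and at FOXA2 to 28.2% and 9.77%. Steps away from the genes were covered as much: with TAZ, 24.2% from 70 to 60 kb upstream of NKX2-1 and 26.3% from 60 to 70 kb downstream of FOXA2. Both spans were most covered in TAZ replicate 2, to 71.8% and 58.5%, against 5.08% and 15.6% in TAZ replicate 1.

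**Figure D3:**
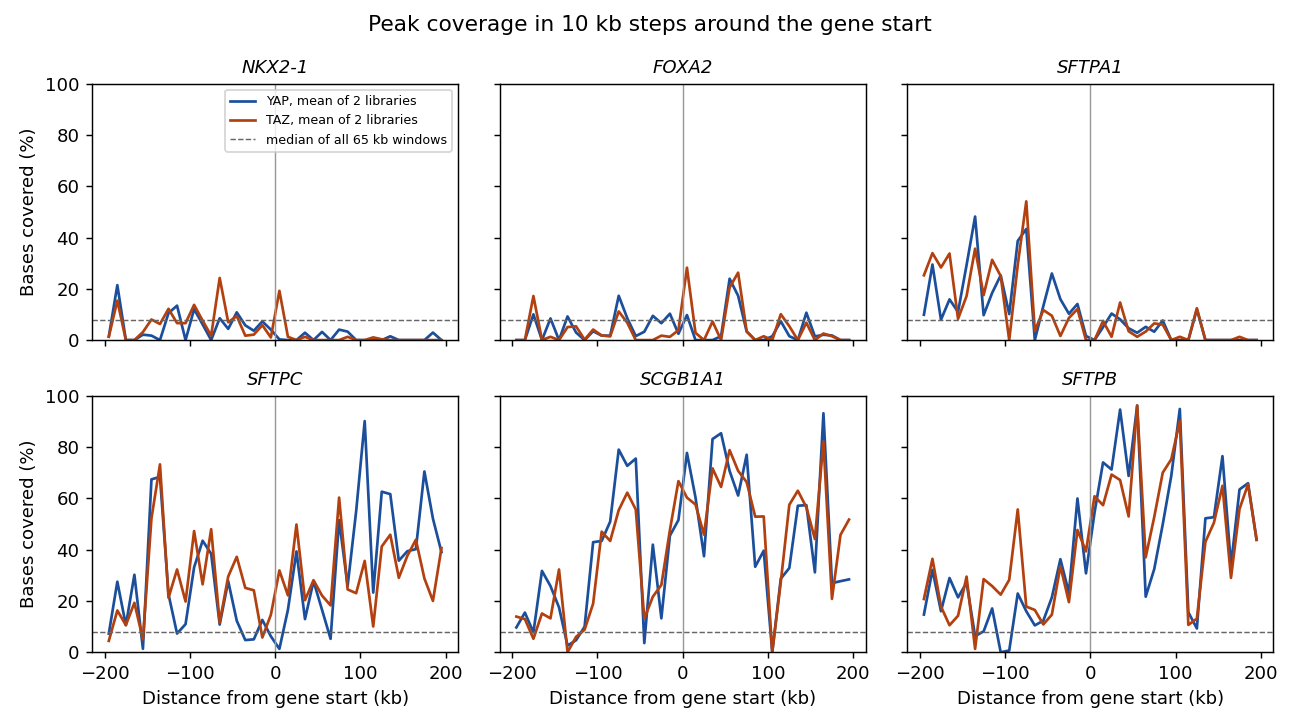
Percent of bases covered in 10 kb steps from 200 kb upstream to 200 kb downstream of each gene start, as the mean of the 2 YAP and of the 2 TAZ libraries; the dashed line is the median of all 65 kb windows (7.71%). SFTPB and SCGB1A1 sit in long covered stretches, and the steps around NKX2-1 and FOXA2 stay at or under 24.2% and 28.2%.

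The order was similar when each locus was set against its own chromosome. SFTPB stood at the 98.2 percentile of the windows of chromosome 2 and SCGB1A1 at the 95.2 percentile of those of chromosome 11. SFTPC stood at the 80.8 percentile on chromosome 8. NKX2-1 stood at 37.0 on chromosome 14, SFTPA1 at 37.2 on chromosome 10 and FOXA2 at 32.2 on chromosome 20, where the median window was covered to 10.9%.

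The libraries shared more of their covered bases at the dense loci; wider coverage by itself raises this share. Of the bases in a peak of any library, 40.8% lay in peaks of all 4 at SFTPB and 35.3% at SCGB1A1, against 15.1% at SFTPC, 4.76% at SFTPA1, 2.98% at NKX2-1 and 0% at FOXA2. Over the genome it was 30.1%. In all, the 6 loci held 64 merged regions, 24 of them met by all 4 libraries and 19 by a single one. A region met by both YAP libraries and no TAZ library was not found among the 64, and 1 region, at FOXA2, was met by both TAZ libraries and no YAP library. Merged regions were not counted over the whole genome, so whether these counts of regions are usual is not known.

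At least 1 base in peaks of all 4 libraries was found at 5 of the 6 loci, against 80.1% of all 65 kb windows, so this count is near the background. The single exception was FOXA2. Within 2 kb of the gene start, peaks were found in all 4 libraries at SFTPB and SCGB1A1, in 3 at NKX2-1 and FOXA2, in 1 at SFTPC and in none at SFTPA1. The share of all gene starts with such peaks was not counted, so these counts have no background. The NKX2-1 and FOXA2 starts lacked a peak in YAP replicate 1, the longest list.

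The share of peaks with a high fold lay above that of the whole list in 1 library and below it in the other 3. Of the 236 peaks, 13 had a fold of at least 4 (5.51%); in the whole lists the share was 9.22% and 7.52% with YAP and 9.68% and 5.604% with TAZ. By library, the loci had 4 and 5 such peaks with YAP (7.14% and 8.33%), and 3 and 1 with TAZ (4.92% and 1.695%). A fold of at least 4 in at least 1 library was found at 5 of the 6 loci, against 72.3% of all windows, so this count is near the background. The highest fold in any of the 6 loci was 4.58, in YAP replicate 1 at SFTPB, 21.1 kb downstream of the start.

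Strong peaks, the 20000 best of each list by −log10 q, were few. The loci held 5, of which 3 were at SFTPB and 1 each at SFTPA1 and SCGB1A1, and no region held strong peaks of 2 libraries. They made up 2.12% of the 236 peaks, while the 20000 make up between 5.10% and 6.44% of the lists. A strong peak in at least 1 library was found at 3 of the 6 loci, against 54.8% of all windows. TAZ replicate 2 had 0 strong peaks in the loci.

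Over the 6 loci together, peaks covered 25.03% and 21.9% of the bases with YAP and 22.4% and 27.4% with TAZ. The antibodies overlapped, with means of 23.5% ± 2.2 and 24.9% ± 3.5 (SD, n = 2) and an exact two-sided permutation p of 0.667. The difference, YAP minus TAZ, was -1.44 percentage points. It was 2.59 between the libraries numbered 1 and -5.48 between those numbered 2, so it did not hold within replicate numbers. Without TAZ replicate 2 it was 1.05, and without YAP replicate 2 it was 0.10. Restricted to q-values up to 0.01, the lists gave 1.57.

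Other lung lineage genes were spread as widely. All 12 had at least 1 base in peaks of all 4 libraries, against 80.1% of all 65 kb windows, and some of the 12 loci were longer than that, up to 126 kb at ABCA3. Their median coverage was 26.1%, against 13.1% for the 6 loci and 7.71% for all windows. The windows were not chosen to hold genes, and 6.83% of them had no peak. With those left out, the excess of the 6 loci over the median window was 4.59 percentage points, against 5.39 with all windows. Of the 12, 3 lay below the median window and 6 above the 75th percentile; of the 6 loci, 3 lay below and 3 above. Coverage was higher in both YAP than in both TAZ libraries at 4 of the 12 (SFTPA2, SFTPD, LAMP3 and GATA6), against 44.8% of all windows, and the reverse at 0 of the 12, against 5.26%. The lowest were FOXA1, a forkhead factor of the same family as FOXA2, with 4.85%, and KRT5, a keratin of airway basal cells, with 7.21%. The highest were ABCA3, the lipid transporter of surfactant storage bodies, with 54.5%, and FOXJ1, the regulator of motile cilia, with 52.9%. Of the 12, 11 had a peak with a fold of 4 or more, against 72.3% of all windows. FOXA1 had none, like FOXA2 and the YAP/TAZ target gene CCN1.

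Beside YAP/TAZ target, housekeeping and olfactory receptor genes the order was mixed. The activity of these genes in the cells was not measured. CCN1 and CCN2, the classic YAP/TAZ target genes, were covered to 11.96% and 11.8%, less than SFTPC, SCGB1A1 and SFTPB in the mean over libraries. Their windows differed in strong peaks: CCN2 held 1 and 2 with YAP and 2 and 3 with TAZ, and CCN1 held none. The housekeeping genes ACTB and GAPDH were covered to 87.7% and 51.6%. SCGB1A1 and SFTPB were thus covered about as much as GAPDH, with overlapping ranges over libraries. A cluster of olfactory receptor genes on chromosome 11, a family expressed in sensory neurons, was covered to 6.92%, between SFTPA1 and the median window. These are values side by side and no test was run between sets of genes.

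**Figure D4:**
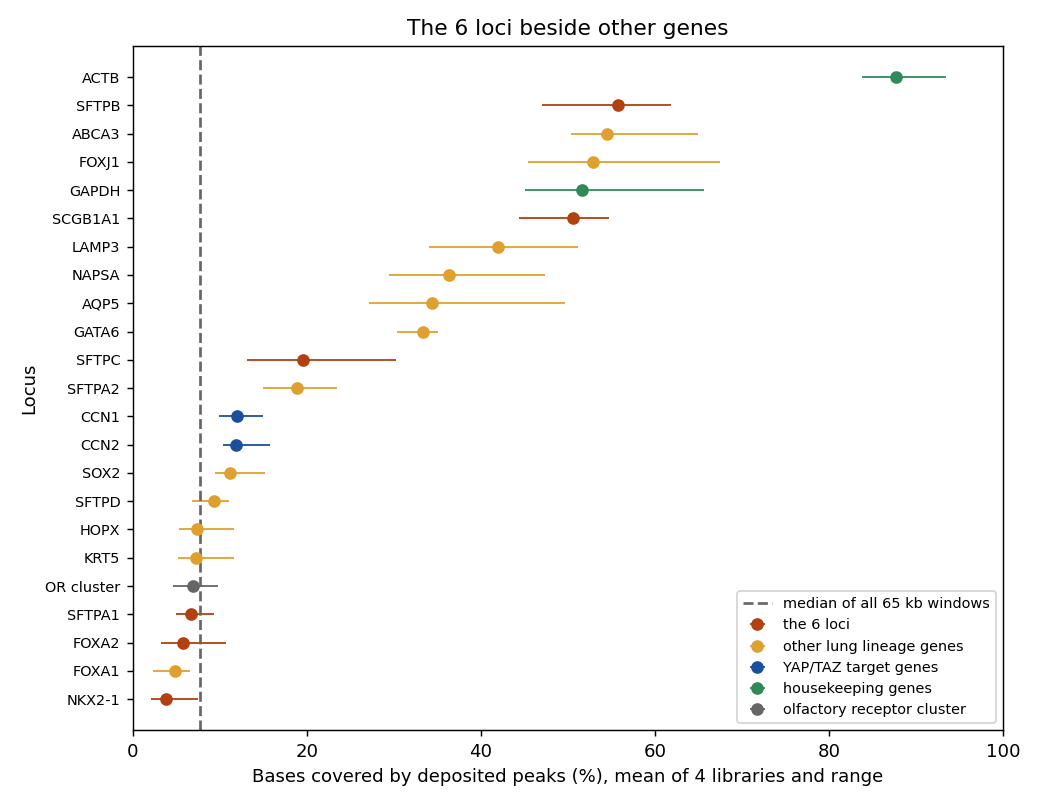
Percent of bases covered by deposited peaks in each locus, as the mean of 4 libraries (point) with the lowest and highest library (line), for the 6 loci, 12 other lung lineage genes, 2 YAP/TAZ target genes, 2 housekeeping genes and an olfactory receptor (OR) cluster. The 6 loci run from the bottom of the order (NKX2-1, 3.76%) to the place under ACTB (SFTPB, 55.8%).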

How the data were processed

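Libraries were mapped to groups and replicate numbers by their titles. The tools named in the submitters' processing notes are MACS2, Bowtie2, cutadapt and SAMtools, with hg19 as the build. Their versions and settings are not given in the sources used here. For each antibody library the authors deposited 1 list of broad peaks, called against an input. The list names and the peak names give different inputs, so which input was used is unsettled. The deposited fold is the authors' ratio of ChIP to input over a peak, and −log10 p and −log10 q are as deposited by the authors. The score column of the authors was left unused. Fold and −log10 q served only to sort, select or characterise peaks of 1 list. No list held a −log10 q under 1.00.

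Percent coverage was computed as the bases of a locus inside peaks (Python 3.11.15, numpy 2.4.6, pandas 2.3.3), tested on simulated intervals. Regions are peaks of the 4 libraries merged where they overlap by 1 bp, and a region's fold in a library is that of its peak with the highest −log10 q. The background was every 65 kb window of chromosomes 1 to 22 and X. Antibodies were compared by an exact permutation test over libraries, unadjusted. Named regions were those met by most libraries, then of highest mean fold, and those nearest the start. Of the 12 other lung genes, the 2 most and 2 least covered were named.

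Members, lists and settings were chosen with earlier results of these data known. Positions of the comparison genes, and the strands and starts of the 6 genes, were set to the nearest kb from general knowledge of hg19, since no hg19 annotation was used here. All 22 genes matched the RefSeq table (GRCh38.p14) by symbol; 19 spans lay within 2.5 kb of its lengths, and SFTPC, SFTPD and NAPSA were longer there. That table gave the neighbours' names. Promoter entries were matched for 3 of the 6 genes. Alternatives were other flanks, peak thresholds, equal list lengths, windows and left-out libraries.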

Additional observations from a re-analysis of the deposited data

How the results depend on the processing

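The YAP minus TAZ difference in coverage of the 6 loci (-1.44 percentage points) changed sign with peaks of a q-value of at most 0.01 (1.57). It also did with a fold of at least 4 (0.50) and with 20000 strong peaks per library (0.143). In these last settings both YAP libraries lay above both TAZ libraries. The means were 0.756% and 0.257% by fold, and 0.240% and 0.096% with strong peaks (exact two-sided permutation p = 0.333 each, the lowest possible). They rest on 13 and 5 peaks. The cause was not tested. Leaving out 1 library gave -3.94 to 1.05. With the replicate number as a block the difference was -1.44 (exact sign-flip p = 1), so the paired value changed no call. By locus, leaving out 1 library gave -4.63 to 0.754 at NKX2-1, -6.18 to 1.23 at FOXA2, -1.34 to 3.03 at SFTPA1 and -7.26 to 3.13 at SCGB1A1. SFTPB (2.27 to 12.5) and SFTPC (-16.6 to -6.87) kept their sign. With lists of equal length SFTPA1 gave -0.647 and NKX2-1 -3.15. At NKX2-1 the antibodies then no longer overlapped (YAP mean 1.58%, TAZ mean 4.73%, exact two-sided permutation p = 0.333). How many of all windows separate at equal list length is not given here. The left-out libraries at each locus were chosen after seeing the data. Loci with a base common to all 4 libraries numbered 2 with 10 kb flanks (SFTPB and SCGB1A1) and 4 with a q-value of at most 0.01. They numbered 0 with a fold of at least 4 and 0 with strong peaks. Fewer bases enter these settings. With 100 kb flanks, where more bases enter, they numbered 6. The share of all windows called in the same settings is not given here, so these counts have no background. The median of the 6 loci exceeded the genome median by 5.39 percentage points, and fell below it, at -0.0492, with strong peaks. The excess was 2.92 with 10 kb flanks, 10.07 with 100 kb flanks, 2.497 with a q-value of at most 0.01, 0.140 with a fold of at least 4 and 3.32 without TAZ replicate 2. Unknown depth and 2 libraries per antibody limit every comparison.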

Other observations

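A strong peak in at least 1 library was found at 7 of the 12 other lung lineage genes, against 54.8% of all windows, so this count is near the background. The SFTPA2 locus held a peak of fold 5.54 in YAP replicate 1, which ranked 1884 in that list. The highest fold at any site of this locus was 3.70 in YAP replicate 2 and 4.01 and 3.80 with TAZ. These are highest values of the locus and need not lie at the site of the first peak. The locus of NAPSA, an aspartic protease that processes surfactant protein B, held a peak of fold 5.22 in YAP replicate 1. The highest fold at any site of that locus was 3.72, 4.11 and 3.45 in the other 3 libraries. GATA6, a zinc finger factor of lung endoderm, had 0 strong peaks with YAP in both libraries and 1 and 3 with TAZ. Its coverage went the other way, at 35.1% and 34.5% with YAP and 30.3% and 33.3% with TAZ. The share of all windows whose strong peaks split by antibody was not counted. AQP5, the water channel of alveolar type I cells, had 1 and 3 strong peaks with YAP and 0 and 1 with TAZ.

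Wide peaks of TAZ replicate 2 over a gene span were not limited to NKX2-1 and FOXA2. It covered 100% of the FOXJ1 span, where the other libraries covered 6.52% and 70.4% with YAP and 42.3% with TAZ. It also covered 100% of the GAPDH span, against 19.8% and 25.2% with YAP and 33.8% in TAZ replicate 1. At SOX2, TAZ replicate 1 was the highest, with 50.7% against 41.1% in TAZ replicate 2 and 17.3% and 0% with YAP. These values were chosen after they were seen.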
